A study of Rattus norvegicus with 32 samples.

Results

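7 genes used as markers of hippocampal pyramidal neurons were followed through the 32 RNA-seq samples of the series: 7 of the 28914 gene names in the count files, each taken by its exact symbol. They are Wfs1, Mpped1, Man1a1, Fibcd1, Spink8, Pou3f1 and Slc17a7. The study examined adult male Sprague-Dawley rats given (+)-methamphetamine hydrochloride (METH, 10 mg/kg, intraperitoneal) or saline (Sal) in 4 injections, 2 h apart, with tissue taken 24 h after the last one. Ribosomal RNA was depleted from total RNA of 4 regions: Ammon's horn (CA), the dentate gyrus (DG), the nucleus accumbens (NAc) and the subventricular zone (SVZ). Each region gave 4 METH and 4 Sal samples, each referred to by its region, treatment and number. The labels do not say whether the samples of a group came from separate rats, so p-values measure the spread between these samples, part of which may be technical.

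Ammon's horn is the arc of pyramidal neurons, divided into the fields CA1, CA2 and CA3, that receives the output of the dentate granule neurons and carries it on toward the subiculum and cortex. Pyramidal neurons release glutamate, which the vesicular transporter VGLUT1 (the product of Slc17a7) loads into synaptic vesicles. Slc17a7 is shared by pyramidal neurons, granule neurons and most neurons of the cortex, whereas the other genes are used in rodents as markers of CA1. Wfs1 encodes wolframin, a membrane protein of the endoplasmic reticulum (ER) that takes part in calcium balance. Mpped1 encodes a metallophosphoesterase domain protein, Man1a1 a Golgi mannosidase that trims N-glycans, and Pou3f1 a class III POU transcription factor. Fibcd1 encodes a fibrinogen C domain receptor that binds acetylated sugars, and Spink8 a Kazal-type serine peptidase inhibitor. Levels in tissue RNA do not separate fewer cells of a type from less RNA per cell.

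In rn6, the build of the count files, the genes lie on 7 chromosomes. Slc17a7 spans chr1:101161252-101173174, Mpped1 chr7:124680294-124751405, Wfs1 chr14:78640620-78665966, Pou3f1 chr5:142643599-142646580, Fibcd1 chr3:9998458-10031530 and Spink8 chr8:117906014-117917842, all on the plus strand, while Man1a1 spans chr20:35257985-35450513 on the minus strand. Reads were counted over exons. The exons of these genes share 0 bases with those of any other gene in the files, so counting without strand did not mix them with a neighbour.

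The sequences shown are the 250 bases before the start of the 4 genes that the regional results turn on, from the RefSeq annotation of GRCr8, 5′ to 3′ on the strand of the gene. RefSeq promoters were at hand for 5 of the 7 genes. Capitals mark matches, on either strand, to 3 motifs: CAGATG (the E-box form bound by NeuroD factors), CAGCTG (a palindromic E-box) and ATGCAAAT (the octamer of POU factors). The motifs do not overlap one another in these windows. The windows are chr1:104785955-104786204 (plus strand), chr7:116824504-116824753 (plus), chr14:78034955-78035204 (plus) and chr20:33927502-33927751 (minus).
Slc17a7: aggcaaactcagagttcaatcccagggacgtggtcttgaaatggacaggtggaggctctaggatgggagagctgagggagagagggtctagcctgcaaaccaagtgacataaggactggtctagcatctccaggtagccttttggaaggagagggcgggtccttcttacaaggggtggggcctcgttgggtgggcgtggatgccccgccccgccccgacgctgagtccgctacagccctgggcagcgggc
Mpped1: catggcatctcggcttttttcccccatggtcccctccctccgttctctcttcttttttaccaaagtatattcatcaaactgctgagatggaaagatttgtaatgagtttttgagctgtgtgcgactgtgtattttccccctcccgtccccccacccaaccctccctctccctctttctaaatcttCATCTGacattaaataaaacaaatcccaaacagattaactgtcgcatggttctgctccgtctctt
Wfs1: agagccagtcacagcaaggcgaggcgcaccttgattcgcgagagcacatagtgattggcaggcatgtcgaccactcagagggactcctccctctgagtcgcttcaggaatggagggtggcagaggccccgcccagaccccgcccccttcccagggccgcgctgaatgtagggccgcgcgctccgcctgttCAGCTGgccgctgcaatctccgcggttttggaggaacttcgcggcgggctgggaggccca
Man1a1: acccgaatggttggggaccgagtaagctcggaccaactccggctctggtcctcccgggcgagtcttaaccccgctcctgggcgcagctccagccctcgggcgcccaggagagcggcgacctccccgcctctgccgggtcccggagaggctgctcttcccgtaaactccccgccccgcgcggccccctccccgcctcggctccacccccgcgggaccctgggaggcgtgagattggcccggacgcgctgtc
The Mpped1 window held 1 CAGATG, read on the opposite strand as CATCTG, and the Wfs1 window 1 CAGCTG. The Slc17a7 and Man1a1 windows held 0 of the 3 motifs, as did that of Fibcd1. Among 27457 rat promoter windows of the same length, 13.7% held CAGATG, 11.9% CAGCTG and 1.5% ATGCAAAT. A match describes the letters only and is not evidence of a bound site.

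Total counts per sample lay between 11094002 and 21869773 (median 14533166.5). Levels are given in CPM, read counts scaled to a common library size by the upper quartile, on which 1 read was worth 0.0442 to 0.0934 CPM. Several libraries stood apart from their labels in marker genes. DG Sal 3 had a summed level of 8 striatal medium spiny neuron genes of 2286 CPM, against 340.2 to 505 CPM in the other DG Sal libraries. SVZ Sal 1, SVZ METH 2 and SVZ METH 4 had 990 to 1674 CPM over 5 thalamic neuron genes, against 78.6 to 490 CPM in the other SVZ libraries. NAc METH 3 had 319 CPM over the striatal genes, against 1887 to 10062 CPM in the other NAc libraries. DG Sal 2 had 556 CPM over 6 neocortical layer genes, against 120.5 to 187 CPM in the other DG Sal libraries. Over 4 choroid plexus genes, DG Sal 4, DG METH 3, CA Sal 2 and SVZ METH 3 had 2008 to 7936 CPM. The other libraries of the series had 0.402 to 381 CPM over these genes. The part of these tissues in the levels of the members was not tested. The 8 dentate granule neuron genes summed to 152 to 615 CPM in CA Sal and to 118 to 328 CPM in DG Sal, so this list did not set the DG apart. CA Sal 1 and 3, at 438 and 615 CPM, exceeded every DG Sal library, and CA Sal 2 and 4 were at 152 and 206 CPM. Prox1 of this list was at 256 and 301.5 CPM in CA Sal 1 and 3, against 27.1 to 155 CPM in DG Sal. In the library names of the headers, DG Sal 1 and 2 carry the numbers of METH 1 and 2 of the NAc and CA, DG METH 1 and 2 carry those of Sal 1 and 2, and the 4 SVZ METH libraries carry 2 numbers. Samples were grouped by their labels throughout. Values without a library that stands apart in striatal or thalamic genes are given where they differ. The library names also begin with 1 of 4 prefixes, apart from 2 merged CA Sal libraries. Neither the labels nor the headers say what a prefix stands for, and it is used here only as a possible batch read from the names.

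The 7 genes separated first by whether they were read at all. Slc17a7, Wfs1, Mpped1, Man1a1 and Pou3f1 had more than 3 reads in all 32 samples. Fibcd1 had 2 reads in 497716355, 1 in CA Sal 3 and 1 in CA METH 3, and 0 in the other 30 samples. Spink8 had 47 reads in all. It had 1, 1, 1 and 0 reads in CA Sal 1 to 4 and 0, 1, 1 and 3 in CA METH 1 to 4. Its highest count, 5 reads, was in SVZ Sal 2. These counts are too few to compare regions. A count of 3 reads, taken as the floor, corresponds to 0.133 to 0.28 CPM, and only 3 samples exceeded it for Spink8 and 0 for Fibcd1. A second name in the files, Fibcd1l1 (chr3:9366053-9396450), which RefSeq lists as a synonym of Fibcd1, had at most 3 reads in a sample. Reads of low mapping quality were not counted. Neither gene passed the filter on low counts, so 5 of the 7 genes were tested.

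Slc17a7 was the most abundant member in the CA and had the widest range across regions. In CA Sal 1 to 4 it was at 2208, 1717, 1905 and 1602 CPM. In DG Sal 1 to 4 it was at 1615, 1358, 3.85 and 1079.6 CPM. DG Sal 1 lay within the range of the CA, DG Sal 2 and 4 lay below it, and DG Sal 3 lay below every other library of the series. In NAc Sal 1 to 4 it was at 114, 4.95, 59.5 and 663 CPM, and in SVZ Sal 1 to 4 at 251.5, 201, 86.4 and 8.42 CPM. Every CA Sal library exceeded every NAc Sal and SVZ Sal library. Within the NAc and SVZ the level spread over 133.9-fold and 29.9-fold among 4 libraries, against 1.38-fold in CA Sal. The group means fell in the order CA (1858 ± 265, SD, n = 4), DG (1014 ± 708), NAc (210.3 ± 305) and SVZ (137 ± 110.0 CPM), and none of the neighbours in this order was separated by the test.

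Mpped1 followed the same order of means with a smaller range. It was at 131, 192, 265 and 271 CPM in CA Sal 1 to 4 and at 254, 226, 70.3 and 143 CPM in DG Sal 1 to 4. It was at 78.6, 85.2, 91.8 and 120.2 CPM in NAc Sal 1 to 4 and at 6.31, 72.9, 74.5 and 44.0 CPM in SVZ Sal 1 to 4. The CA libraries all lay above those of the NAc and SVZ, and SVZ Sal 1, with its high thalamic markers, was the lowest. DG Sal 3, at 70.3 CPM, fell among the SVZ libraries and below those of the NAc. The means were 215 ± 66.3 (CA), 173 ± 83.4 (DG), 94.0 ± 18.3 (NAc) and 49.4 ± 32 CPM (SVZ, SD, n = 4 each).

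Wfs1 and Pou3f1 did not set the CA apart. Wfs1 was at 297, 322, 185 and 299 CPM in CA Sal 1 to 4 and at 97.4, 295, 439 and 459 CPM in NAc Sal 1 to 4. Its means were 323 ± 167 in the NAc, 276 ± 61.5 in the CA, 244 ± 231 in the SVZ and 238 ± 59.6 CPM in the DG (SD, n = 4 each), with overlapping ranges in all 4 regions. Pou3f1 was at 32.8, 17.9, 48.6 and 68.0 CPM in CA Sal 1 to 4. Its means were 51.2 ± 28.9 in the NAc, 43.5 ± 14.2 in the DG, 41.8 ± 21.5 in the CA and 36.5 ± 26.1 CPM in the SVZ. Its lowest values were 4.90 CPM in SVZ Sal 1, 4.95 CPM in SVZ METH 2 and 7.33 CPM in SVZ METH 4, the same 3 libraries that carried the thalamic markers, and the part of those markers in these values was not tested.

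Man1a1 ran in the opposite direction to Slc17a7. It was at 36.6, 45.8, 55.0 and 57.9 CPM in CA Sal 1 to 4, at 129.8, 73.9, 122 and 50.9 CPM in NAc Sal 1 to 4 and at 43.8, 68.4, 158 and 122 CPM in SVZ Sal 1 to 4. The lowest libraries of the NAc and SVZ fell within the range of the CA, so the groups overlapped. The means were 98.1 ± 51.6 (SVZ), 94.1 ± 37.9 (NAc), 66.7 ± 31.2 (DG) and 48.9 ± 9.63 CPM (CA, SD, n = 4 each).

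**Figure D1:**
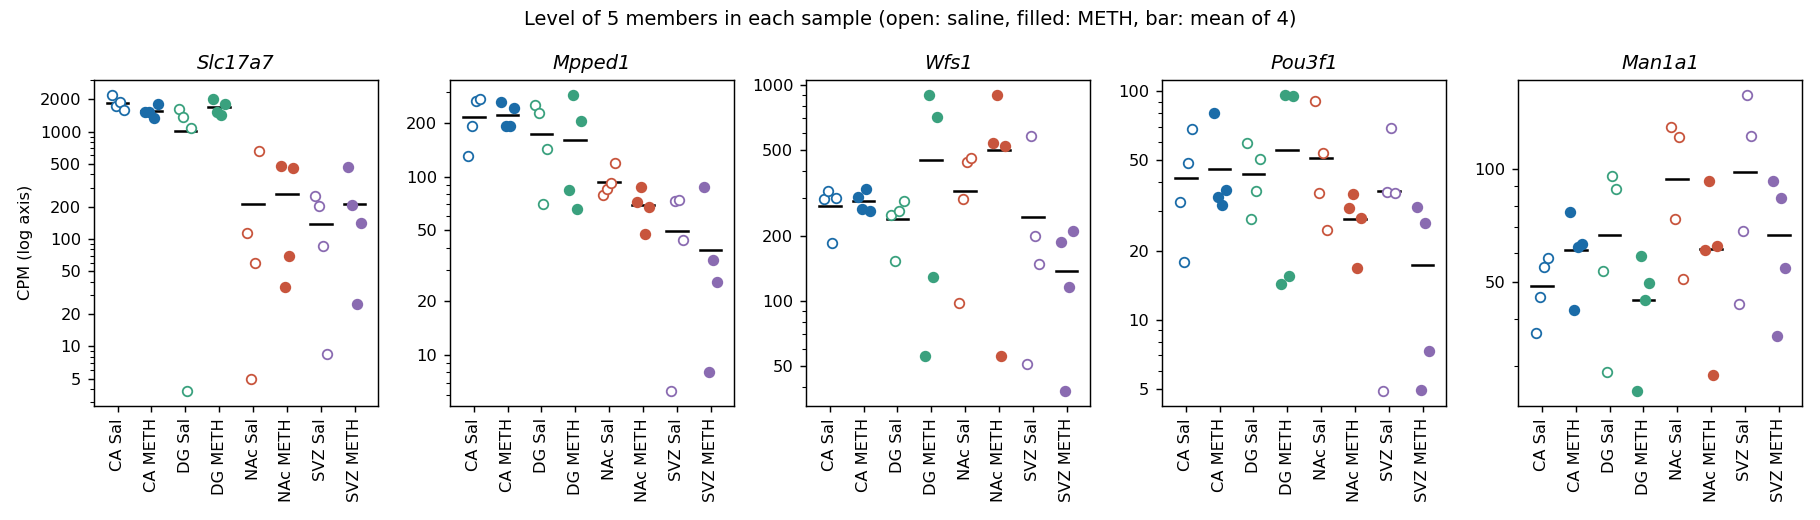
Level of Slc17a7, Mpped1, Wfs1, Pou3f1 and Man1a1 (CPM, log axes that differ between panels) in each of the 32 samples by region and treatment, with open points for saline, filled points for METH and a bar at the mean of 4. Slc17a7 spans 1337 to 2208 CPM in the 8 CA libraries and 3.85 to 2016 CPM in the 8 DG libraries, and the other genes overlap more between regions.

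Per kilobase of exon, which allows levels of different genes to be compared, Slc17a7 led the set in CA Sal at 579 ± 82.5 CPM per kb (SD, n = 4), followed by Wfs1 at 77.2 ± 17.2, Mpped1 at 55.8 ± 17.2, Pou3f1 at 14 ± 7.20 and Man1a1 at 8.36 ± 1.65. In NAc Sal the mean of Wfs1 (90.4 ± 46.8 CPM per kb) stood above that of Slc17a7 (65.5 ± 95.1), with overlapping spreads. As a share of the summed level per kb of the 7 genes, Slc17a7 made up 71.3% to 83.6% in the 8 CA libraries. It made up 1.18% to 53.9% in the 8 NAc libraries, where Wfs1 made up 20.1% to 80.1%. In the SVZ the share of Slc17a7 ran from 2.97% to 75.8%, with its 2 highest values in SVZ Sal 1 and SVZ METH 2. In DG Sal 3 the share of Slc17a7 was 0.99% and that of Wfs1 60.3%. The share of Wfs1 lay within the range of the NAc libraries, and that of Slc17a7 below it.

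**Figure D2:**
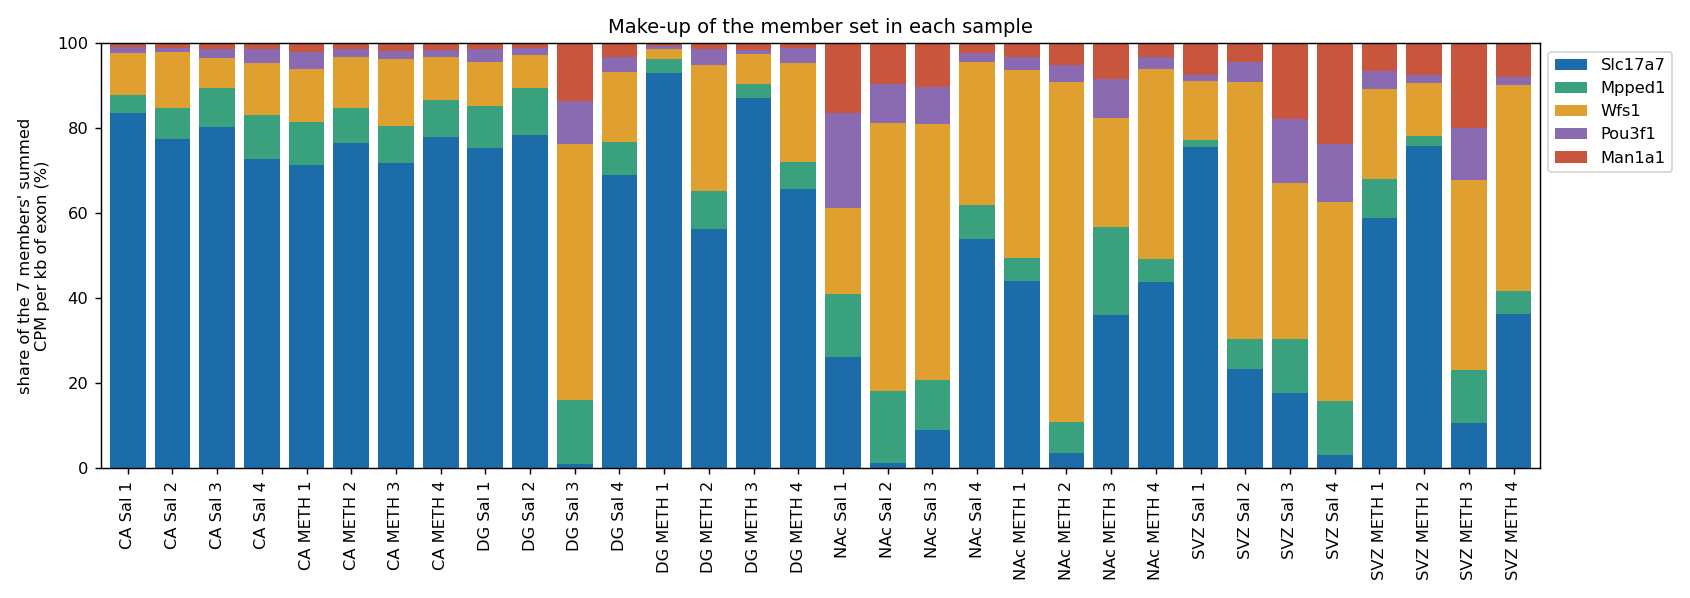
Share (%) of each gene in the summed level per kilobase of exon of the 7 members, 1 stacked bar for each of the 32 samples (Fibcd1 and Spink8 are too low to be seen). Slc17a7 fills 71.3% to 83.6% of every CA bar and 0.99% of the bar of DG Sal 3.

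Differences between regions were tested in the 16 saline samples, by edgeR's quasi-likelihood test over all 15515 genes that passed the filter. A gene was called at an FDR (the p adjusted by the method of Benjamini and Hochberg) under 0.01 with a change above 2-fold. Log2 fold changes are followed by ± their standard error (SE). For CA against the NAc, DG and SVZ pooled, 0 of the 5 tested members were called, beside 0% of all genes (3664 genes had an unadjusted p under 0.05, and DESeq2 called 262). Man1a1 was lower in the CA by a log2 fold change of -0.86 ± 0.37 (FDR = 0.177), Slc17a7 differed by 2.02 ± 1.06 (FDR = 0.255) and Mpped1 by 1.01 ± 0.51 (FDR = 0.243). Wfs1, at 0.0037 ± 0.45, and Pou3f1, at -0.09 ± 0.47, lay near 0.

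Against single regions, Mpped1, Slc17a7 and Man1a1 differed most between the CA and the SVZ. There 0 of 5 members were called, beside 0.812% of all genes. Mpped1 was higher in the CA by a log2 fold change of 2.08 ± 0.56, a 4.22-fold difference that passed an FDR of 0.05 (FDR = 0.0279), as did 13.2% of all genes, and not 0.01. It was called without DG Sal 3 and SVZ Sal 1 (log2 fold change 1.71, FDR = 0.00219), beside 4.54% of all genes in that fit. It was also called by DESeq2 (2.14, adjusted p = 0.00131), beside 3.3% of all genes. With the replicate number as a block it was not (2.17, FDR = 0.0432), and 0% of all genes were called. Over genes, the deviations of same-numbered CA Sal and SVZ Sal libraries from their group means had r of -0.16 to 0.06. The pairing that the block assumes was thus not seen between these groups. The difference of Slc17a7 was 3.73 ± 1.42 (FDR = 0.0894) and that of Man1a1 -1.05 ± 0.43 (FDR = 0.112). Without SVZ Sal 1, Wfs1 turned from 0.13 to -0.21 and Pou3f1 from 0.15 to -0.21. Of the 5 members, 2 (Mpped1 and Slc17a7) had higher values in every CA Sal library than in any SVZ Sal library, as had 11.3% of all genes.

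Against the NAc, 0 of 5 members were called, beside 0% of all genes (3745 genes at an unadjusted p under 0.05, and 532 called by DESeq2). Slc17a7 differed by a log2 fold change of 3.10 ± 1.38 (FDR = 0.184), Mpped1 by 1.16 ± 0.54 (FDR = 0.207) and Man1a1 by -0.97 ± 0.43 (FDR = 0.183). NAc Sal 4 weighed most on Slc17a7, whose difference was 4.96 without it (FDR = 0.0799). The groups did not overlap for 2 of the 5 members (Slc17a7 and Mpped1, both higher in the CA), as for 11% of all genes that were higher. Among the libraries of the 1 prefix that held saline samples of the CA, DG and NAc, Slc17a7 was at 1602 CPM in the CA (n = 1), 1351 CPM in the DG (mean, n = 3) and 361 CPM in the NAc (mean, n = 2). All SVZ libraries had a prefix of their own, so prefix and region cannot be told apart for the SVZ.

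Between the CA and the DG, 0 of 5 members were called, beside 0% of all genes (1386 at an unadjusted p under 0.05, 0 by DESeq2). The log2 differences ran from -0.48 ± 0.43 (Man1a1) to 0.87 ± 1.28 (Slc17a7). Without DG Sal 3, Slc17a7 was at 0.46, Man1a1 at -0.25 and Mpped1 at 0.05. The other members lay closer to 0 and no difference was detectable at this spread, with Wfs1 at 0.19 ± 0.58, Mpped1 at 0.31 ± 0.54 and Pou3f1 at -0.08 ± 0.59. In the DG against the SVZ, 0 of 5 members were called, beside 0.0193% of all genes, with Mpped1 higher by 1.77 ± 0.55 (FDR = 0.141) and Slc17a7 by 2.86 ± 1.36 (FDR = 0.292). Without DG Sal 3 and SVZ Sal 1, Mpped1 was called there (1.66, FDR = 0.00533), beside 2.5% of all genes. The DG against the NAc and the SVZ against the NAc also gave 0 of 5, beside 0% of all genes in both (1790 and 1958 at an unadjusted p under 0.05, and 12 and 44 called by DESeq2). Pairs of regions with a region in common share its 4 saline samples.

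**Figure D3:**
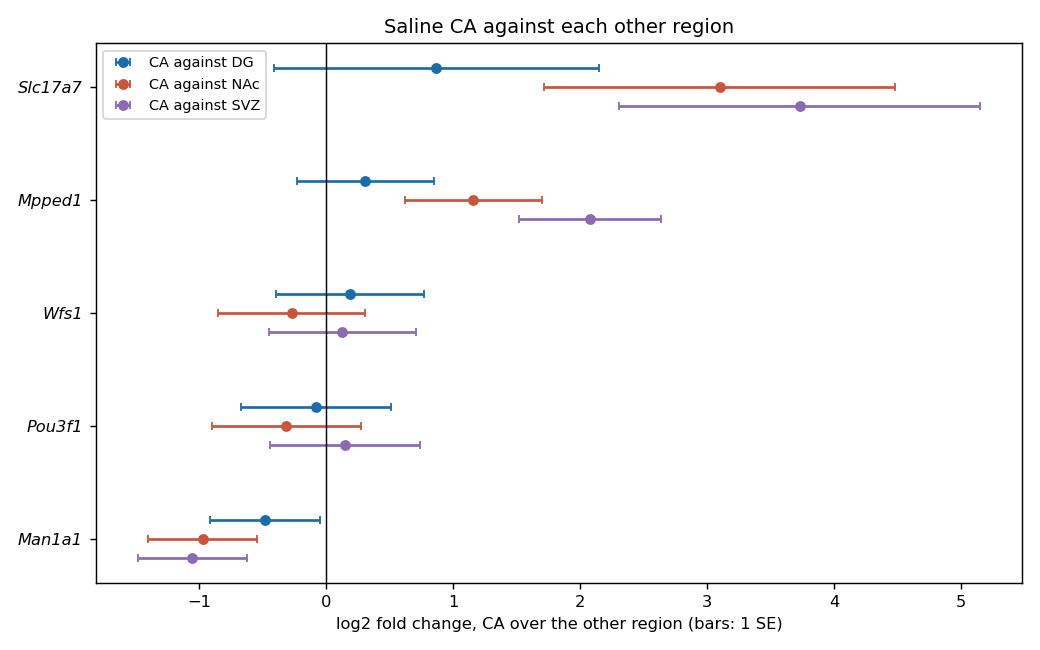
Log2 fold change of saline CA over saline DG, NAc and SVZ for the 5 tested members (points) with 1 SE to each side, 4 samples per region. Slc17a7 and Mpped1 lie above 0 and Man1a1 below 0 in all 3 comparisons, while Wfs1 and Pou3f1 lie within 1 SE of 0.

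Marker genes of other cell types are given beside Slc17a7. A list of 8 genes of hippocampal and cortical glutamatergic neurons (Camk2a, the calmodulin kinase of excitatory synapses, and the transcription factors Neurod6 and Bhlhe22 among its most abundant) summed to 1962 to 3320.1 CPM in CA Sal and 453 to 1256 CPM in NAc Sal. In NAc Sal 1 to 4 it summed to 1015, 453, 831 and 1256 CPM, the same order as Slc17a7 in these libraries. In SVZ Sal 1 to 4 it summed to 369, 1027, 1091 and 827 CPM, lowest where Slc17a7 was highest. Camk2a made up most of these sums, at 1539 to 2669 CPM in CA Sal, 441 to 1103 CPM in NAc Sal and 364 to 1055 CPM in SVZ Sal. Neurod6 differed more, at 100 to 241, 0.456 to 13.9 and 0.223 to 12.6 CPM in the same groups. Within SVZ Sal it was lowest in SVZ Sal 4. The striatal list summed to 301 to 528 CPM in CA Sal and to 10062, 1887, 4517 and 2236 CPM in NAc Sal 1 to 4, lowest in the library with the lowest Slc17a7. The thalamic list summed to 1674, 78.6, 126 and 213.5 CPM in SVZ Sal 1 to 4, and in SVZ Sal 1 it was led by Prkcd (935 CPM) and Slc17a6 (308 CPM), which encodes the transporter VGLUT2 of subcortical neurons. DG Sal 3 had Neurod6 at 0.0631 CPM and Ppp1r1b, the striatal phosphoprotein DARPP-32, at 538.5 CPM. The part of these cell types in the levels of Slc17a7 was not tested.

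**Figure D4:**
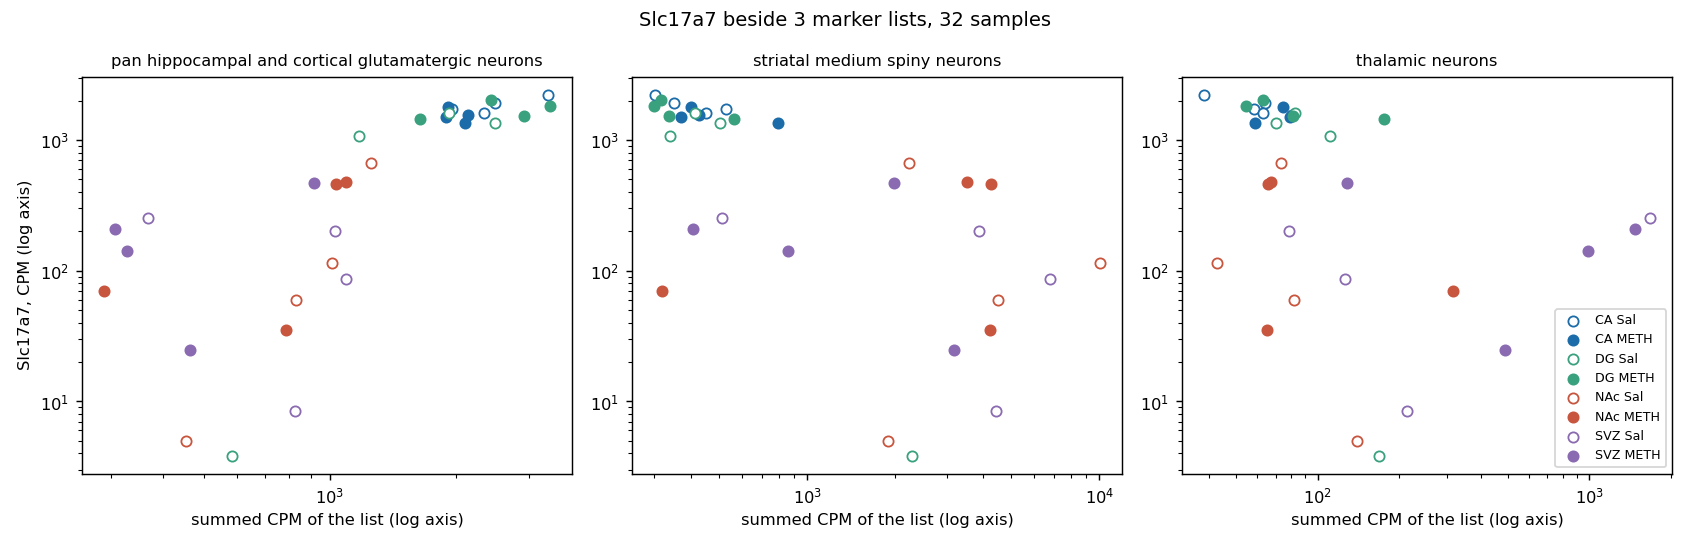
Slc17a7 (CPM, log axis) against the summed CPM (log axis) of 3 marker lists in the 32 samples, with open points for saline and filled points for METH. The 8 CA libraries and 7 of the 8 DG libraries form 1 group at the top, DG Sal 3 lies at the bottom at 3.85 CPM, and the NAc and SVZ libraries spread in between.

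Over all 32 samples, the genes whose log2(CPM + 1) was most like that of Slc17a7, among 14445 genes with a mean of at least 1 CPM, were Mical2, Neurod2, Vash1, Olfm1 and Slc30a3 (Pearson's r of 0.90 to 0.92). Slc30a3 encodes the zinc transporter of glutamatergic vesicles and Neurod2 a transcription factor of excitatory neurons. Those most like Mpped1 were Bcl11a, Sstr4, Sh3rf1, Slitrk5 and Sstr2 (r of 0.91 to 0.95), of which Sstr4 and Sstr2 encode somatostatin receptors. For Pou3f1 they were AABR07049886.2, Plk2, Tmem44, Esyt3 and Jade2 (r of 0.83 to 0.92). For Man1a1 they were Iqgap3, Prkd1, Kremen1, Crabp1 and Ccdc42 (0.79 to 0.83), and for Wfs1 Ryr1, AABR07040412.1, Zcchc14, Klhdc1 and Esyt3 (0.69 to 0.81), where Ryr1 encodes a calcium release channel of the ER. The mean of the standardized levels of the 5 read members was most like Zdhhc23, Tmem44, Rprml, Tmem121b and Moxd1 (r of 0.88 to 0.90). The samples behind these values share regions and libraries and are not independent.

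The members did not move as 1 set. Over the 32 samples, Mpped1 and Pou3f1 had r = 0.75 and Wfs1 and Pou3f1 r = 0.59, whereas Slc17a7 had r = 0.12 with Wfs1, 0.10 with Pou3f1 and -0.53 with Man1a1. Among the 8 DG libraries Wfs1 and Pou3f1 had r = 0.95. This came with a wide split in DG METH, where Wfs1 was at 55.3 and 129 CPM in METH 1 and 3 and at 898 and 707 CPM in METH 2 and 4. Pou3f1 followed with 14.3, 15.5, 96.4 and 94.8 CPM in METH 1, 3, 2 and 4, and Mpped1 with 84.7, 65.6, 288 and 206 CPM. Slc17a7 did not share the split, at 2016, 1438, 1533 and 1805 CPM in the same order. The dentate granule list was at 564 and 123 CPM in METH 1 and 3 and at 448 and 374 CPM in METH 2 and 4, so it did not follow the split either. The glutamatergic list, most of it Camk2a, was at 2428 and 1641.5 CPM in METH 1 and 3. In METH 2 and 4 it was at 2905 and 3358.5 CPM. The sum of a list of 5 CA3 genes ran the other way, at 342 and 348.5 CPM against 189 and 268 CPM. Spock1, its most abundant gene, did so too (155 and 181 against 89.1 and 107 CPM), while Bok overlapped (38.7 and 46.3 against 42.8 and 65.7 CPM). The sum of a list of 4 CA2 genes overlapped, at 182 and 223 CPM against 182 and 291 CPM. Of its genes, Rgs14 followed the split (67.6 and 92.4 against 102.5 and 175.5 CPM). Pcp4 ran the other way (83.7 and 77.6 against 64.8 and 72.9 CPM). The part of these cell types in the split was not tested. In the CA, where all 8 libraries lay between 185 and 328 CPM for Wfs1, Wfs1 and Pou3f1 had r = -0.22.

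METH was compared with saline in each region, with a call at an FDR under 0.01 and a change above 1.5-fold. In the CA, 0 of 5 members were called, beside 0% of 14612 genes (1046 at an unadjusted p under 0.05, and 10 called by DESeq2). Slc17a7 was at 1539.7, 1509, 1337 and 1801 CPM in CA METH 1 to 4, with a mean of 1547 ± 191 against 1858 ± 265 CPM in CA Sal (SD, n = 4 each). The ranges overlapped, and the log2 fold change was -0.26 ± 0.13 (FDR = 0.711). Man1a1 was at 76.7, 42.3, 62.0 and 63.3 CPM in CA METH 1 to 4, a difference of 0.33 ± 0.19 from saline (FDR = 0.721). Wfs1 differed by 0.07 ± 0.17, Mpped1 by 0.05 ± 0.22 and Pou3f1 by 0.13 ± 0.41. The CA had the least spread between libraries (a biological coefficient of variation of 0.199 over all genes, against 0.247 to 0.373 in the other regions). With the name prefix as a covariate Slc17a7 was at -0.17.

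In the DG, 0 of 5 members were called, beside 0% of 14800 genes (1890 at an unadjusted p under 0.05, and 176 called by DESeq2). Slc17a7 averaged 1698 ± 263 in DG METH against 1014 ± 708 CPM in DG Sal, a log2 fold change of 0.77 ± 1.08 (FDR = 0.85). Without DG Sal 3 the value was 0.36 (FDR = 0.434), with Man1a1 at -0.34 and Mpped1 at -0.33. Wfs1 averaged 447.5 ± 419 against 238 ± 59.6 CPM (0.92 ± 0.76, FDR = 0.689), and was 0.32 without DG METH 2. Man1a1 was lower by 0.58 on the log2 scale (-0.58 ± 0.40, FDR = 0.615), Pou3f1 was at 0.35 ± 0.65 and Mpped1 at -0.08 ± 0.53. With the name prefix as a covariate Slc17a7 was at 8.82 (FDR = 0.0124). That fit compares METH 1 and 2 with DG Sal 3 as the only saline library of their prefix, since the prefixes of the remaining DG libraries held 1 treatment each. Of the tested CA3 genes, Bok was at 1.57 ± 0.24 and Grik4 at 1.37 ± 0.24 for METH in the DG (FDR = 0.157 for both). Spock1 was at 0.13 and Coch at -0.65. Of the CA2 genes, Rgs14 was at 1.18 ± 0.33 (FDR = 0.221), Amigo2 at 0.59, Pcp4 at -0.18 and Cacng5 at -0.28. None of these genes was called, and their bearing on the values of the members was not tested.

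In the NAc, 0 of 5 members were called, beside 0% of 14771 genes (500 at an unadjusted p under 0.05, and 1 called by DESeq2). Pou3f1 was at 30.7, 35.5, 16.8 and 27.8 CPM in NAc METH 1 to 4 against 90.7, 35.8, 53.6 and 24.7 CPM in NAc Sal 1 to 4. The groups overlapped through NAc Sal 4, and the log2 fold change was -0.85 ± 0.38 (FDR = 0.999). Mpped1 was at 72.3, 88.0, 48.0 and 67.9 CPM in NAc METH 1 to 4, a difference of -0.42 ± 0.20 (FDR = 0.999). Man1a1 was at -0.59 ± 0.38, Wfs1 at 0.65 ± 0.73 and Slc17a7 at 0.31 ± 1.26. Slc17a7 in NAc METH 1 to 4 was at 479, 35.5, 70.0 and 458 CPM. It was 2.17 without NAc Sal 4, -0.16 without NAc METH 1 and -0.49 with the name prefix as a covariate. NAc METH 3, low in striatal markers, held the lowest Wfs1 (55.5 CPM), Mpped1, Man1a1 and Pou3f1 of the region. Without it Wfs1 was at 1.02, Slc17a7 at 0.63, Man1a1 at -0.35, Mpped1 at -0.29 and Pou3f1 at -0.68, and 0 members were called.

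In the SVZ, 0 of 5 members were called, beside 0% of 15579 genes (402 at an unadjusted p under 0.05, and 2 called by DESeq2). Pou3f1 averaged 17.4 ± 13.2 in SVZ METH against 36.5 ± 26.1 CPM in SVZ Sal (-1.04 ± 0.81, FDR = 0.979). Wfs1 averaged 138 ± 77.6 against 244 ± 231 CPM (-0.81 ± 0.75), and was at 0.07 without SVZ Sal 2. Man1a1 was at -0.54 ± 0.45, Mpped1 at -0.33 ± 0.83 and Slc17a7 at 0.65 ± 1.01, the last from 469.7, 209, 24.9 and 141 CPM in SVZ METH 1 to 4. It was -0.12 without SVZ METH 1 and 1.12 without SVZ Sal 1 and SVZ METH 2. Mpped1 was at -0.70 without SVZ Sal 1, 0.0097 without SVZ METH 2 and -0.17 without SVZ METH 4. The median log2 fold change of the 5 tested members was -0.42 in the NAc, 0.35 in the DG, 0.07 in the CA and -0.54 in the SVZ, beside medians over all genes tested between -0.01 and 0.03.

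**Figure D5:**
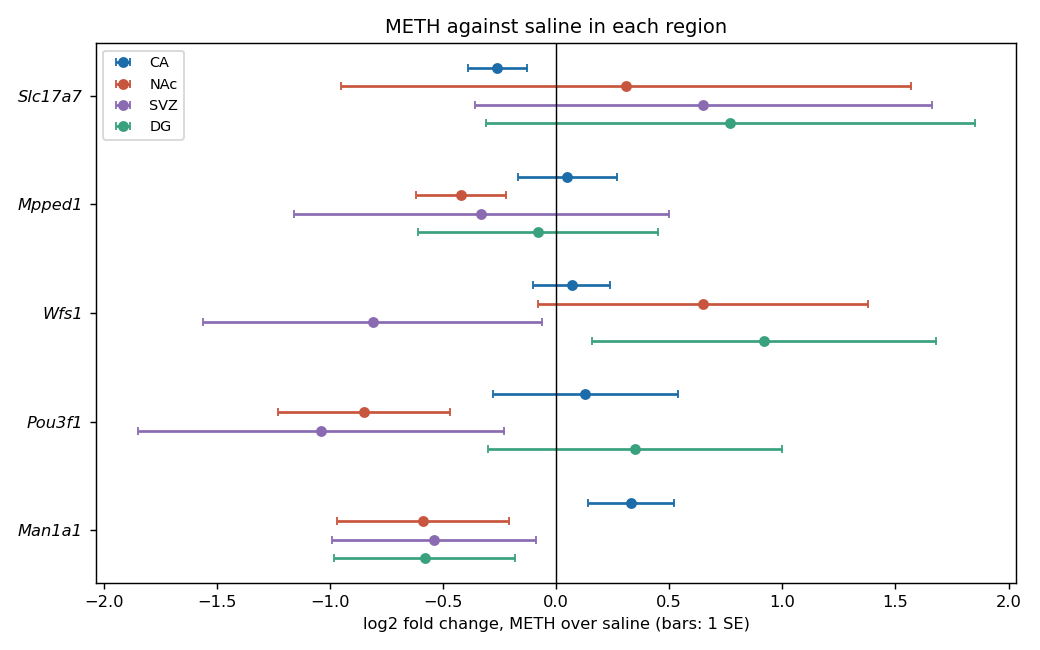
Log2 fold change of METH over saline for the 5 tested members in the CA, NAc, SVZ and DG (points) with 1 SE to each side, 4 samples per treatment and region. None of the 20 values passed the test, and the SE of Slc17a7 is 0.13 in the CA against 1.01 to 1.26 in the other regions.

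Whether METH acted differently on the DG and the CA (DG minus CA) was tested in the 16 samples of both regions. For 0 of 5 members was it called, beside 0% of 15308 genes (2353 at an unadjusted p under 0.05, and 81 called by DESeq2). Man1a1, at -0.58 in the DG and 0.33 in the CA, had a difference of -0.91 ± 0.47 (FDR = 0.379). Slc17a7, at 0.77 and -0.26, had one of 1.02 ± 1.15 (FDR = 0.729), which was 0.61 without DG Sal 3. Wfs1 differed by 0.83 ± 0.83, Pou3f1 by 0.21 ± 0.83 and Mpped1 by -0.14 ± 0.61. Among the CA3 and CA2 genes, Bok differed by 2.34 ± 0.46 and Grik4 by 1.91 ± 0.44 (FDR = 0.126 for both). Rgs14 differed by 1.28 ± 0.38 (FDR = 0.154). Amigo2 was at 0.66, Spock1 at 0.24, Pcp4 at 0.01, Cacng5 at -0.31 and Coch at -1.71, and none of these genes was called.

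Genes with related functions were followed as lists. Of 8 further genes of vesicular glutamate transport and glutamate supply (Glul, Slc1a2 and Slc1a3 the most abundant), 0 were called in any of the 12 comparisons. Their summed level was 2902 to 3718 CPM in CA Sal and 2813 to 3173 CPM in NAc Sal, with overlapping ranges. In saline CA against SVZ, 2 of the 8 were higher and 1 was lower at an unadjusted p under 0.05, beside 12.3% and 19.3% of all genes. Of 7 genes of N-glycan mannose trimming and first branching, which act in the Golgi steps next to Man1a1, 0 were called. In DG METH against DG Sal, 2 of the 7 were lower at an unadjusted p under 0.05, beside 6.42% of all genes, with a list median of -0.37. Of 7 genes of ER calcium and stress signalling, the setting of Wfs1, 0 were called, and their list medians for METH lay between -0.04 and 0.12. Of 3 further class III POU factors, 0 were called. They were lower in saline CA than in the DG with a list median of -1.01, 2 of 3 at an unadjusted p under 0.05, beside 5.32% of all genes. The median gene, Pou3f4, was at 20.3 CPM in DG Sal 3, the library with striatal markers. In the other DG Sal libraries it was at 2.33 to 6.98 CPM, against 3.62 to 5.15 CPM in CA Sal. Pou3f2 was at 46.2 CPM in DG Sal 2 and 13.3 to 20.1 CPM in the other DG Sal libraries.

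Lists for other fields and cell types gave the following beside the members in saline CA against SVZ, where the unadjusted p was under 0.05 for 12.3% of all genes as higher in the CA and for 19.3% as lower, and 0.812% were called. Of 8 genes of glutamatergic neurons, 8 were higher at an unadjusted p under 0.05 and 0 were called (median log2 fold change 4.21, beside -0.10 for all genes). All 8 striatal genes were lower at that level, with 0 called (median -4.02). Of the 5 thalamic genes tested 1 was called lower, as was 1 of 4 CA2 genes, a list whose summed level was 161 to 224 CPM in CA Sal and 371.5 to 749 CPM in SVZ Sal. Both calls were lost with the replicate number as a block, under which 0% of all genes were called. The pairing that this block assumes was not seen between CA Sal and SVZ Sal. Most of the CA2 sum in SVZ Sal was Pcp4, at 252 to 703 CPM there and 56.4 to 88.2 CPM in CA Sal. Cacng5 was also lower in CA Sal, at 4.07 to 16.5 CPM against 24.6 to 46.4 CPM. Rgs14 went the other way, at 73.2 to 116 CPM in CA Sal and 3.63 to 69 CPM in SVZ Sal, so the sum does not stand for each CA2 gene. Of the 4 tested CA3 genes 1 was higher and 1 lower at that level, and their median was -0.26.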

How the data were processed

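RNA-seq of 32 rat brain samples was re-analysed. Per the labels and file headers, the authors trimmed reads with cutadapt 2.7, mapped them to rn6 with STAR 2.5.2b and counted reads per gene name with featureCounts 1.6.3 (Ensembl release 95, unstranded, with a minimum mapping quality). The deposited values are raw counts per gene. A deposited count matrix of the series, which lacks Fibcd1 and Spink8, served as an alternative.

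Genes were tested with edgeR 4.0.16 in R 4.3.3 (upper-quartile normalization, filterByExpr, quasi-likelihood test, Benjamini-Hochberg adjustment over all genes) and, as an alternative, DESeq2 1.42.0. The SE was obtained from the log2 fold change and the F statistic. Groups were taken from the labels. The procedures were tested on simulated counts. The genes, lists and tests were chosen with earlier results of these data known. All 7 members are named. List genes are mostly given as counts with at most the 3 most abundant named. Others, such as Ppp1r1b, Prkcd and genes of the CA2 and CA3 lists, are named where a library stands apart or the genes of a list differ. For each member the 5 genes of highest correlation are named. Samples with the same replicate number in NAc Sal and CA Sal deviated together (r of 0.11 to 0.25 in 4 pairs) and carry the same library numbers in the headers, so a replicate block was tried. NAc Sal and CA METH also deviated together (0.23 to 0.27), and METH and Sal of a region did not in all 4 pairs. CA Sal did not deviate together with SVZ Sal (-0.16 to 0.06) or with DG Sal (-0.11 to 0.07). The alternatives are given with the limits. The number of RUVr factors (factors of unwanted variation) removed by the authors is not given in the sources used here.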

Additional observations from a re-analysis of the deposited data

Results flagged for a closer look

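In 40 groups of 4 samples (5 members in 8 groups), the gap of the highest or lowest sample to its neighbour was compared with the range of the group, and 2 stood out. Chance gives about 1 in 20. Slc17a7 in NAc Sal 4 was at 663 CPM, with the next library at 114 and the lowest at 4.95 CPM, so that the gap was 0.835 of the range. This library also had the highest summed level of glutamatergic neuron genes in NAc Sal (1256 CPM). Pou3f1 in CA METH 1 was at 80.3 CPM, with the next library at 37.0 and the lowest at 31.8 CPM, a gap of 0.893 of the range.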

How the results depend on the processing

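With 4 libraries per group and a wide spread of Slc17a7 within groups, absence of a call does not show absence of a difference. Fibcd1 and Spink8 had too few counted reads to be compared, and the reason for this was not tested. No member was called for METH or for its difference between DG and CA under the alternatives run. The highest share of all genes called for METH was 2.77% in the DG, 1.53% in the SVZ and 0.0062% in the NAc, each with 4 RUVr factors. It was 0.0445% in the CA, by DESeq2, and 2.46% in the DG minus CA, with 4 factors. The number of members called stayed at 0 in 160 comparisons that left out 1 library each (lowest and highest 0), beside 0% to 2.46% of all genes. Comparisons between pairs of saline regions came from shared fits. For saline CA against the pooled regions it was 2 with 2 RUVr factors and 2 with 4 (Mpped1 and Slc17a7), beside 4.25% and 5.07% of all genes. For CA against NAc it was 1 with 4 factors (Slc17a7), beside 6.41%. For CA against SVZ it was 1 at an FDR under 0.05 with no fold threshold, by DESeq2, with 2 factors and without DG Sal 3 and SVZ Sal 1 (Mpped1), beside 13.2%, 3.3%, 6.66% and 4.54%, and 2 with 4 factors (Mpped1 and Slc17a7), beside 7.96%. For DG against SVZ it was 1 with 2 factors, with 4 factors and without those libraries (Mpped1), beside 1.07%, 2.72% and 2.5%. TMM, no filter, RNA integrity, the count matrix and 1 fit of all samples moved no count. Leaving out those libraries, summing SVZ METH libraries of the same number and using only DG replicates 3 and 4 were chosen after seeing the data.

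The replicate number as a block left the count of members called at 0 in all 12 comparisons. With the block, Pou3f1 in the DG turned to -0.12 for METH, and the NAc value of Slc17a7 was 1.15. No call of a member changed, but the genes called fell from 126 to 0 in saline CA against SVZ and from 3 to 0 in DG against SVZ.

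Log2 fold changes kept their direction except these, all with an FDR of at least 0.649, for which the cause was not tested. With RNA integrity as a covariate: Wfs1 in the NAc for METH (-0.51), Mpped1 in the DG for METH (0.12), Pou3f1 in CA against DG (0.06) and Wfs1 in CA against the pooled regions (-0.001, and -0.00047 with the count matrix). With the name prefix of the libraries for METH: Slc17a7 in the NAc (-0.49), Mpped1 in the DG (1.39), Mpped1 and Pou3f1 in the CA (-0.27 and -0.37) and Mpped1 in the DG minus CA (0.62). With DG replicates 3 and 4 only, Mpped1 was 0.32 in the DG and 0.27 in the difference. With 2 and 4 RUVr factors, Pou3f1 was 0.03 and 0.06 in CA against the pooled regions and -0.08 and -0.00025 in the DG minus CA. Slc17a7 was 0.23 in SVZ against NAc with 4 factors. Without DG Sal 3 and SVZ Sal 1, Wfs1 was -0.12 in CA against the pooled regions and -0.21 in CA against SVZ, where Pou3f1 was -0.22.

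For pairs of saline regions, the library left out was in part from a region outside the pair, where the value could hardly turn. With these counted, leaving out 1 library turned 50 log2 fold changes and left the direction of 606. The 606 therefore overstates how stable the directions were. For METH the ranges of the members that turned were -0.12 to 0.18 (Mpped1), -0.27 to 0.46 (Pou3f1) and -0.08 to 0.16 (Wfs1) in the CA, -0.52 to 0.18 (Mpped1) and -0.06 to 0.67 (Pou3f1) in the DG, -0.16 to 2.17 (Slc17a7) in the NAc, and -1.10 to 0.0097 (Mpped1), -0.12 to 1.11 (Slc17a7) and -1.15 to 0.07 (Wfs1) in the SVZ. For the DG minus CA they were -0.58 to 0.12 (Mpped1) and -0.20 to 0.62 (Pou3f1). For saline, Pou3f1 ran from -0.41 to 0.18 (CA against DG), -0.65 to 0.10 (NAc), -0.21 to 0.64 (SVZ) and -0.42 to 0.16 (pooled), Wfs1 from -0.21 to 1.01 (CA against SVZ) and -0.10 to 0.17 (pooled), and Slc17a7 in SVZ against NAc from -1.09 to 1.23. Scaling by TMM or by total counts moved 0 of 80 mean levels by more than 1 SD.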
